A study of Homo sapiens with 4 samples.

Results

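GATA3 binding was mapped at 8 genes of the TEAD and YAP module: the DNA-binding factors TEAD1, TEAD2, TEAD3 and TEAD4, the coactivators YAP1 and WWTR1, and the vestigial-like cofactors VGLL3 and VGLL4. The genes were taken by name, with earlier results of these data known, and the called peaks by place. No peak height was used in the assignment. A peak position was assigned to a gene when it lay within 100 kb of the 5′ end in hg38, inside the gene body, or carried the gene's symbol in the deposited list. Of 18456 positions on chromosomes in replicate 1, 18 were taken, and of 12782 in replicate 2, 13 were taken. Where a position of replicate 1 and one of replicate 2 fell no more than 100 bp apart, they were joined as a shared region. This gave 11 of 9145 shared regions, none of them at more than 1 of the 8 genes. The annotation held 20033 protein-coding genes, and 6 of the 11 regions also fell to a coding gene outside the 8. The same share over all shared regions was not counted.

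The cells were H1 human embryonic stem cells, an established line, kept in mTeSR1 medium on Matrigel. All 4 samples of the series had received BMP4 at 50 ng/ml for 6 h, and they comprised 2 GATA3 ChIP replicates and 2 input chromatin samples. Input entered here only through the peak calling. With 1 cell line, 1 time and no untreated GATA3 ChIP among these samples, the values below describe where GATA3 was found after BMP4, not a change with BMP4. RNA was not measured in these 4 samples, so the identity of their cells could not be checked by marker genes. The study measured RNA of BMP4-treated H1 cells in separate experiments, which were not used here. The files gave no peak height or q-value, and depth could not be read from them.

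TEAD proteins bind DNA at enhancers and promoters but need partners to activate transcription. YAP1 and WWTR1 (also called TAZ) are such partners, and they are kept out of the nucleus when the Hippo kinases phosphorylate them. Vestigial-like proteins use the same TEAD surface and can compete with YAP1, as VGLL4 does, or form a separate TEAD complex. In the early embryo TEAD4 and YAP1 act in the trophectoderm, a lineage in which GATA3 is also expressed. GATA factors recognise the core GATA with A or T before it and A or G after it.

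The DNA under the shared regions is shown first, because it lets the positions be read together with the motif. Each line gives 60 bases of the plus strand of hg38, centred on the GATA word closest to the middle of the region. The 4 GATA words, which are AGATAA with its variant AGATAG, then TGATAA with its variant TGATAG, are in capitals on either strand. A word on the minus strand appears as its reverse complement, TTATCT for AGATAA. Regions of a gene are numbered by rising coordinate.
TEAD1 region 1 (chr11:12680869-12680928): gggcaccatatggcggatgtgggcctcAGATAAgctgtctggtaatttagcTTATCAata
TEAD1 region 2 (chr11:12727721-12727780): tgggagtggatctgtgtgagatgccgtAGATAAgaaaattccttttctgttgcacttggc
TEAD1 region 3 (chr11:12815011-12815070): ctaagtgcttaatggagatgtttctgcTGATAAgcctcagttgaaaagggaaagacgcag
TEAD3 region 1 (chr6:35492858-35492917): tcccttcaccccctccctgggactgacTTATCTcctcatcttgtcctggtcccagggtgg
TEAD4 region 2 (chr12:2963649-2963708): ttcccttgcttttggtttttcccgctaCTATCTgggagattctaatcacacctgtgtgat
YAP1 region 1 (chr11:102013082-102013141): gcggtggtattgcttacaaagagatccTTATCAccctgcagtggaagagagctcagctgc
WWTR1 region 1 (chr3:149574355-149574414): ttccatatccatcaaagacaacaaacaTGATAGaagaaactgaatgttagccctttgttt
VGLL3 region 1 (chr3:86993966-86994025): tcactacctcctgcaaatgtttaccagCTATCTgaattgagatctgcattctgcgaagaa
VGLL4 region 2 (chr3:11795647-11795706): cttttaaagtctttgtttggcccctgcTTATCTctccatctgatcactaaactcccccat

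TEAD4 region 1 had more GATA words than any other of the 11, and its whole 200 bp window is therefore given, with the same words in capitals.
TEAD4 region 1 (chr12:2958184-2958383): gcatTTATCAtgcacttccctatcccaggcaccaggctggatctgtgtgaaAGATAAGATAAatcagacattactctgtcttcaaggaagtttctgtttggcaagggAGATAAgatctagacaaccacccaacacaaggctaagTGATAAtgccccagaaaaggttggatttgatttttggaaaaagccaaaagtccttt
VGLL4 region 1 was the only one of the 11 with none of these words. In its window the bare core GATA, on either strand, is in capitals.
VGLL4 region 1 (chr3:11654273-11654472): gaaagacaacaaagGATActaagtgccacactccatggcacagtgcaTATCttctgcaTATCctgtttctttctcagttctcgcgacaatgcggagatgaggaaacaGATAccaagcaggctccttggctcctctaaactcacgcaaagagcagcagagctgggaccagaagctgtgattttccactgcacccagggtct
Both windows were picked for display after the words had been counted.

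Of the 8 genes, 7 had at least 1 shared region (87.5%), and the one without was TEAD2. By the same rule 47.7% of all protein-coding genes had one. A shared region needs a position of each replicate, so these 7 genes had both by definition, and TEAD2 had neither. Of all coding genes, 68.7% had a position of replicate 1 and 57.3% one of replicate 2. Long genes have wide search windows, so the count was also read by width. Of genes with a window of 200 kb, 44.4% had a shared region, and so did TEAD3 and TEAD4 but not TEAD2. Among genes with windows over 200 and up to 300 kb the share was 53.1%, and both YAP1 and VGLL3 had one. Among those over 300 and up to 400 kb it was 68.2%, and TEAD1, WWTR1 and VGLL4 all had one. Over the summed windows of the 8 genes, 2043 kb, there were 0.538 shared regions per 100 kb. Taken gene by gene, which is a different measure, the mean over all coding genes was 0.326 and the median 0. With 8 genes these differences were not tested.

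**Figure D1:**
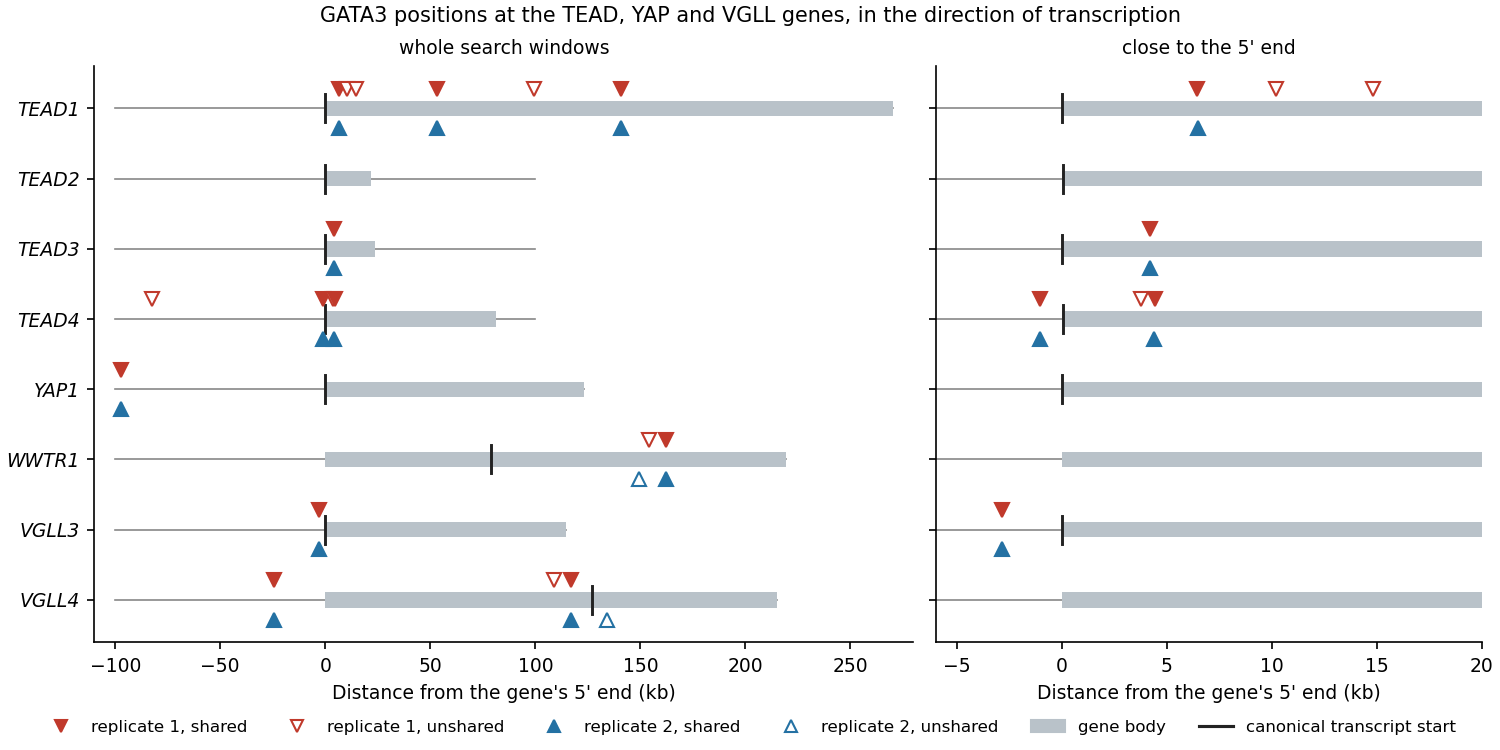
GATA3 positions at the 8 genes by distance from the gene's 5′ end in kb, over the whole search windows (left) and close to the 5′ end (right). Triangles are positions of replicate 1 (above the line) and replicate 2 (below), filled where the other replicate had a position within 100 bp. Shared positions sit within 10 kb of the 5′ end at TEAD1, TEAD3, TEAD4 and VGLL3, and TEAD2 has no position.

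Shared regions lay close to the 5′ end at 4 of the 8 genes. TEAD4, VGLL3, TEAD3 and TEAD1 each had one within 10 kb, at distances of 1.05, 2.84, 4.18 and 6.48 kb. Across all coding genes 8.69% had a shared region that close. The nearest region was 24.3 kb from the 5′ end of VGLL4, 97.4 kb from that of YAP1 and 162 kb from that of WWTR1. For TEAD2 it was 739 kb away, beyond the search window. The median distance over the 8 genes was 15.4 kb and over all coding genes 118 kb, with quartiles of 44.8 and 248 kb. None of the 11 regions had its centre in an exon of any annotated transcript, a count made for these regions alone. There were 7 inside the body of their gene and 4 upstream of it.

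Among the DNA-binding factors, TEAD1 had the most positions. TEAD1, expressed in many tissues, spans chr11:12674421-12944737 on the plus strand. Replicate 1 had 6 positions, at 12680880, 12684583, 12689201, 12727810, 12773767 and 12815080. Replicate 2 had 3, at 12680917, 12727742 and 12814995, and each lay within 100 bp of one of replicate 1. Every position of replicate 2 was therefore shared, and 3 of the 6 in replicate 1 were not. The shared regions were 6.48 and 53.4 kb into the gene, in intron 2 of the canonical transcript, and 141 kb in, in intron 3. The third lay 13.1 kb upstream of a further annotated TEAD1 transcript start at 12828121. The replicate positions were 37, 68 and 85 bp apart, so at a limit of 50 bp only 1 of the 3 regions remained.

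TEAD1 region 1 held AGATAA at its exact centre, 12680896 to 12680901. A TGATAA on the opposite strand followed 24 bp further on, as the capitals in its sequence show. TEAD1 region 3 had TGATAA 3 bp from the centre, and region 2 had AGATAA 25.5 bp from it. Having 3 shared regions put TEAD1 in the top 5.94% of coding genes. Of the 408 coding genes with a window within 10% of its 370.3 kb, 17.9% had at least 3, and their median was 1. The coding genes most like TEAD1 by number of shared regions (3) and window width (within 5%) were GRAMD1B, ANO6, TBCK, JARID2 and EPB41L4A, the nearest in width among 17 such genes of 192 with that width.

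TEAD4, the TEAD gene best known for its role in the trophectoderm, had positions on both sides of its 5′ end. The gene spans chr12:2959330-3040676 on the plus strand. Replicate 1 had positions at 2876671, 2958280, 2963093 and 2963752, and replicate 2 at 2958287 and 2963723. The shared pair upstream of the gene was 7 bp apart and 1.05 kb from the 5′ end, outside any annotated gene. The pair in intron 2 was 29 bp apart and 4.41 kb downstream. Its neighbour in replicate 1, 2963093, was unshared, since replicate 2 came no closer than 630 bp. The unshared position 2876671 lay 82.7 kb upstream, 0.413 kb from the 5′ end of RHNO1. Of coding genes with a window within 10% of 200 kb, 14.4% had 2 or more shared regions, as TEAD4 did.

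The upstream TEAD4 region had 5 GATA words in 200 bp. Among all shared regions the median was 1, the highest number 27, and 8.74% had 3 or more. Of the 11 regions 1 had 3 or more, 9.09%, and it was this one. A pair of these words overlapped by 1 base in the run AGATAAGATAA, 46 and 41 bp upstream of the centre. The word nearest to the centre was AGATAA, 10 bp from it. The region in intron 2 had 1 word, AGATAG on the minus strand, 59 bp from the centre.

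TEAD3, a factor abundant in the placenta, had 1 position in each replicate, 35492887 and 35492902. They were 15 bp apart in intron 1, 4.18 kb downstream of the 5′ end. The gene spans chr6:35473597-35497079 on the minus strand. An AGATAA on the minus strand lay 7 bp from the middle of the region. Of the 11 regions it had the highest GC content, 56.0%, against 41.5% for the lowest, TEAD4 region 1, and a median of 44.0% over all shared regions.

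TEAD2, the TEAD gene active from the earliest embryonic stages in mice, had 0 positions in either replicate. It spans chr19:49340595-49362457 on the minus strand. The nearest position of replicate 1 was 213 kb from its 5′ end, at 49149226, and that of replicate 2 was 489.9 kb away, at 48872557. Chromosome 19 had 2.17 shared regions per Mb, fewer than the 3.09 to 3.64 of chromosomes 3, 6, 11 and 12, which hold the other 7 genes. On chromosome 19, 36.4% of coding genes had a shared region by the rule. A list of called peaks shows which places passed the threshold, so weaker binding at TEAD2 cannot be judged from it.

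**Figure D2:**
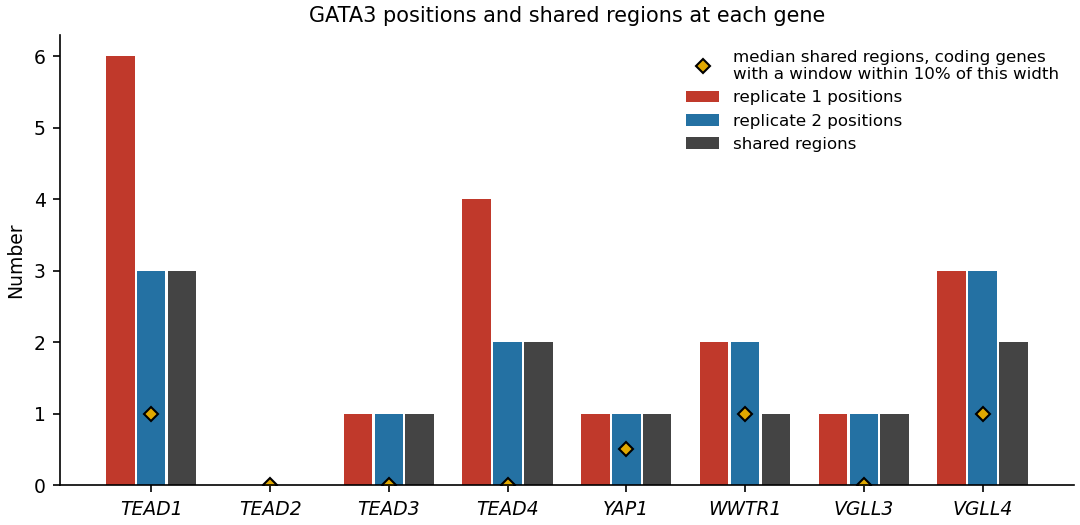
Number of GATA3 positions in replicate 1 and replicate 2 and of shared regions at each gene (bars). Diamonds give the median number of shared regions at coding genes with a search window within 10% of the same width, which is 0 to 1, and TEAD1 has 3 shared regions, TEAD4 and VGLL4 have 2, and TEAD2 has 0.

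At the coactivator genes YAP1 and WWTR1 every position lay far from the 5′ end of the gene. YAP1 spans chr11:102110447-102233424 on the plus strand, and its only positions were 102013082 in replicate 1 and 102013099 in replicate 2. This shared pair, 17 bp apart, was 97.4 kb upstream, just within the 100 kb limit, and closer to the 5′ end of CFAP300, 34.3 kb away. The deposited lists named it for that gene, under the older symbol C11orf70. No position lay in the body of YAP1. The region had TGATAA on the minus strand 21 bp from its centre and again at 95 bp.

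WWTR1 had 2 positions per replicate, all in the gene body. The gene spans chr3:149517235-149736714 on the minus strand. Replicate 1 had 149574440 and 149582572, and replicate 2 had 149574418 and 149587212. The first pair was 22 bp apart and shared, and the second was 4640 bp apart and not. The shared region was 162 kb from the 5′ end of the gene and 83.6 kb from the canonical start, in intron 2. Another annotated WWTR1 transcript starts 1.82 kb upstream of it, at 149576252. Its only GATA word was TGATAG, 44.5 bp from the centre. Of coding genes with a window of like width, 67.4% had at least as many shared regions.

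The vestigial-like genes differed in where their regions lay. VGLL3, which can join TEAD proteins in place of YAP1, spans chr3:86876388-86991149 on the minus strand. It had 1 position per replicate, 86993997 and 86993986, which were 11 bp apart and 2.84 kb upstream of the 5′ end. AGATAG on the minus strand was 4 bp from the middle. No other coding gene took this region by the same rule.

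VGLL4, a repressor of YAP1 and TEAD activity, had 3 positions in each replicate and 2 shared regions. The gene spans chr3:11556069-11771350 on the minus strand. Replicate 1 had 11654379, 11662823 and 11795699, and replicate 2 had 11637199, 11654366 and 11795696. The shared pairs were 13 and 3 bp apart. One lay 117 kb into the gene, which is 10.5 kb upstream of the canonical start at 11643915. The other lay 24.3 kb upstream of the gene, in intron 7 of the neighbour TAMM41. This second region had AGATAA on the minus strand, 21 bp from its centre. The unshared positions, 11662823 and 11637199, were 8457 and 17180 bp from the nearest position of the other replicate.

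The replicates were compared over these genes as over the genome. Of the 18 positions in replicate 1, 11 were shared, 61.1% (95% Wilson interval 38.6 to 79.7), against 49.6% of all positions. Of the 13 in replicate 2, 11 were shared, 84.6% (57.8 to 95.7), against 71.5%. Both intervals contained the value over all positions, so no difference was detectable with this few positions. Shared positions were a median of 17.0 bp apart at the 8 genes and 23.0 bp over all shared regions. The widest pair within the limit was 85 bp apart, at TEAD1, and the closest pair beyond it 630 bp, at TEAD4. The limit of 100 kb had the YAP1 region just inside, at 97.4 kb. The nearest shared region just outside was that of TEAD3, at 35652723 and 35652701, 156 kb upstream of its 5′ end.

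GATA words were counted in the 200 bp window of each shared region. At least 1 of the 4 words was in 10 of the 11 windows, 90.9% (95% Wilson interval 62.3 to 98.4), against 82.0% of all shared regions. The 11 windows held 17 words: AGATAA 8 times, TGATAA 6 times, AGATAG 2 times and TGATAG once. AGATAA alone was in 54.5% of them and in 51.6% of all shared regions. There were 2 or more words in 4 of the 11 windows, 36.4%, and in 34.6% of all. The nearest word lay a median of 15.5 bp from the centre in the 10 windows and 18.0 bp in all windows with a word. It was within 25 bp in 7 of the 11 regions, 63.6%, against 52.4% of all.

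At VGLL4 region 1, without any of the words, the bare core GATA occurred 4 times, flanked by other bases. Over all shared regions 1648 had none of the words, and 58.9% of these held the bare core. Of the unshared positions, 6 of 7 in replicate 1 and 2 of 2 in replicate 2 had a GATA word in their windows. Over all unshared positions the shares were 72.9% and 67.0%.

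**Figure D3:**
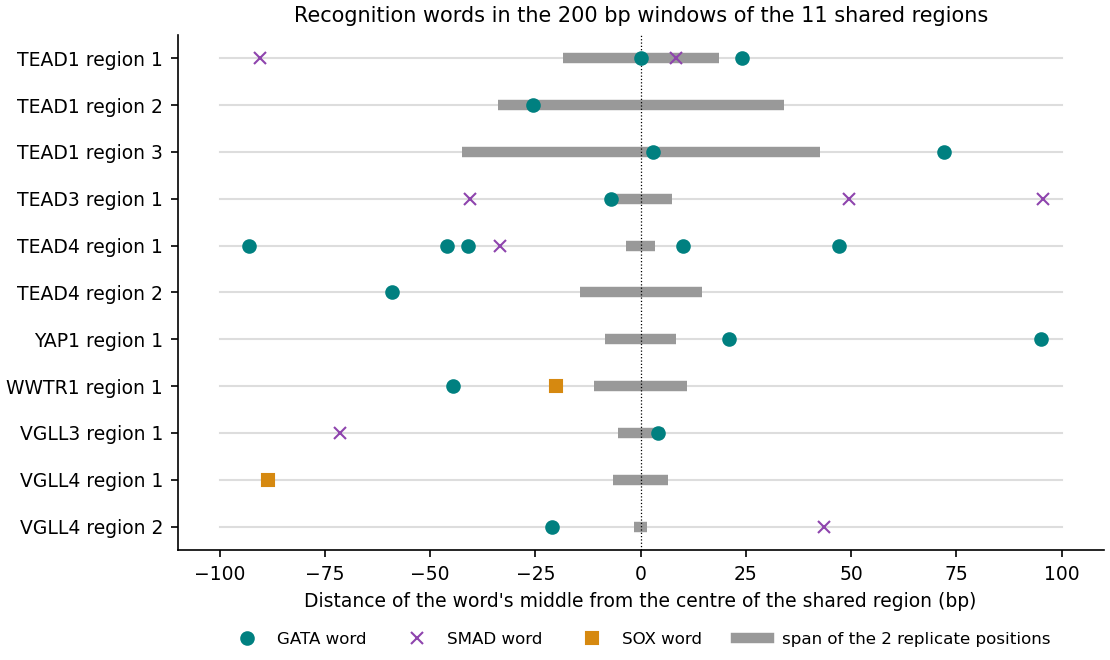
Places of GATA, SMAD and SOX words around the centre of each of the 11 shared regions, in bp along the plus strand (0 is the centre). Grey bars span the positions of the 2 replicates. A GATA word lies within 25 bp of the centre in 7 of the 11 regions, TEAD4 region 1 has 5 GATA words and VGLL4 region 1 has none.

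Words of other factors were counted in the same windows on both strands. The TEAD word GGAATG was in 0 of the 11 windows (95% Wilson interval 0 to 25.9) and in 18.9% of all shared regions, which lies inside that interval. In windows of 400 bp, 1 of the 11 had it, 9.09% against 31.1% of all shared regions. It was YAP1 region 1, with the word at 187 bp from the centre. Among single positions, 1 of the 18 in replicate 1 had the TEAD word within its 200 bp window, 5.56%, and 0 of the 13 in replicate 2. That one was the unshared VGLL4 position 11662823, whose window also held 1 GATA word. The share over all single positions was not counted. GATA and TEAD words stood together in 15.2% of all shared regions. The short SMAD word GTCTG was in 5 of the 11, at TEAD1 region 1, TEAD3, TEAD4 region 1, VGLL3 and VGLL4 region 2. That is 45.5% (21.3 to 72.0), against 36.1% of all shared regions. The SOX words ACAAAGG and ACAATGG were in 2 of the 11, at WWTR1 and VGLL4 region 1. That is 18.2% against 13.3% of all. The AP-1 words TGAGTCA and TGACTCA and the octamer ATGCAAAT were in 0 of the 11, and in 5.63% and 5.08% of all. A word absent from a window says only that these letters do not occur there.

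**Figure D4:**
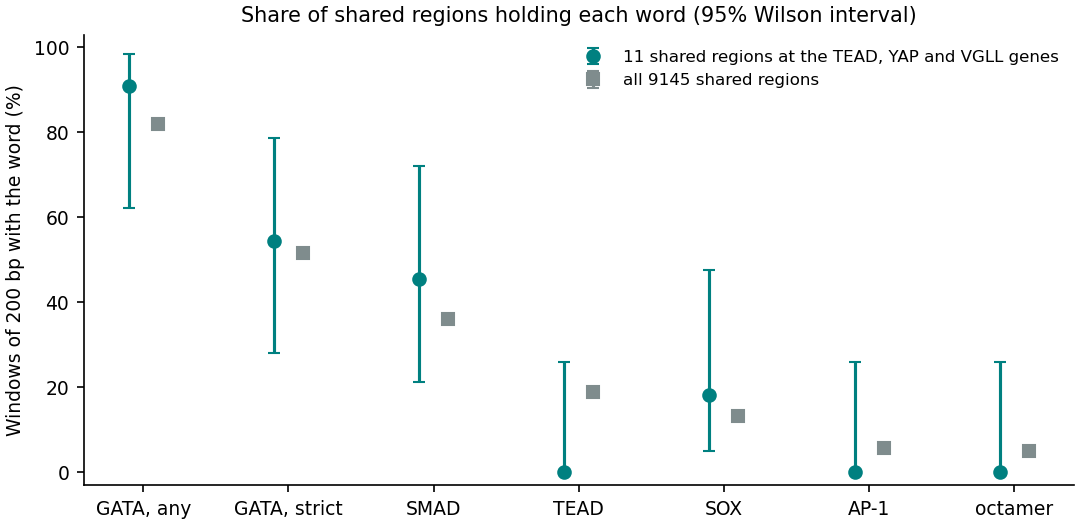
Share of 200 bp windows with each word, in percent with 95% Wilson intervals, for the 11 shared regions (circles) and all 9145 shared regions (squares). "GATA, strict" is AGATAA alone. Each interval for the 11 regions contains the value over all shared regions.

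The rest of the Hippo pathway was read from a list of 36 further genes. A shared region was found by the same rule at 20 of them, 55.6%, beside the 47.7% of all coding genes. Within 10 kb of the 5′ end there was one at 9 of the 36, beside 8.69% of coding genes. Among the 18 upstream kinases and adaptors 9 had a shared region, among the 20 usual targets of YAP1 and TEAD 12 had one, and of the other vestigial-like genes VGLL1 and VGLL2 neither did. PTPN14, LATS2, AMOTL2 and AJUBA stand in both of the longer lists and were counted once in the 36.

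Several genes of the kinase cascade that restrains YAP1 had a region near the 5′ end. Of the 18 upstream kinases and adaptors, 5 had one within 10 kb, 27.8%, beside 8.69% of coding genes. Another 9 of the 18 had no shared region by the rule. LATS1, the kinase that phosphorylates YAP1, had one 0.536 kb upstream (149718616 in replicate 1 and 149718667 in replicate 2, chromosome 6). NF2, an upstream activator of the cascade, had one 1.37 kb downstream, in intron 1. For the kinases STK4 and STK3 and their scaffold SAV1 the distances were 4.68, 7.64 and 7.50 kb upstream. LATS2, the paralog of LATS1, had no position in its window in either replicate.

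Of the usual targets, TGFB2, a secreted ligand, had a shared region 0.0970 kb downstream of its 5′ end, in the untranslated part of exon 1. FOXF2, a forkhead transcription factor, had one 0.144 kb upstream. ASAP1 and ANKRD1 had theirs 3.60 kb downstream and 4.68 kb upstream. CCN1 and CCN2, often used as readouts of YAP1 and picked out after their values were seen, had 1 shared region each, 35.9 kb upstream and 91.5 kb downstream. The highest number, 4, was reached by AMOTL1, PTPN14, STK3, CRIM1 and F3, against 3 at TEAD1. STK3 has a search window of 672 kb, and F3 the smallest the rule gives.

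**Figure D5:**
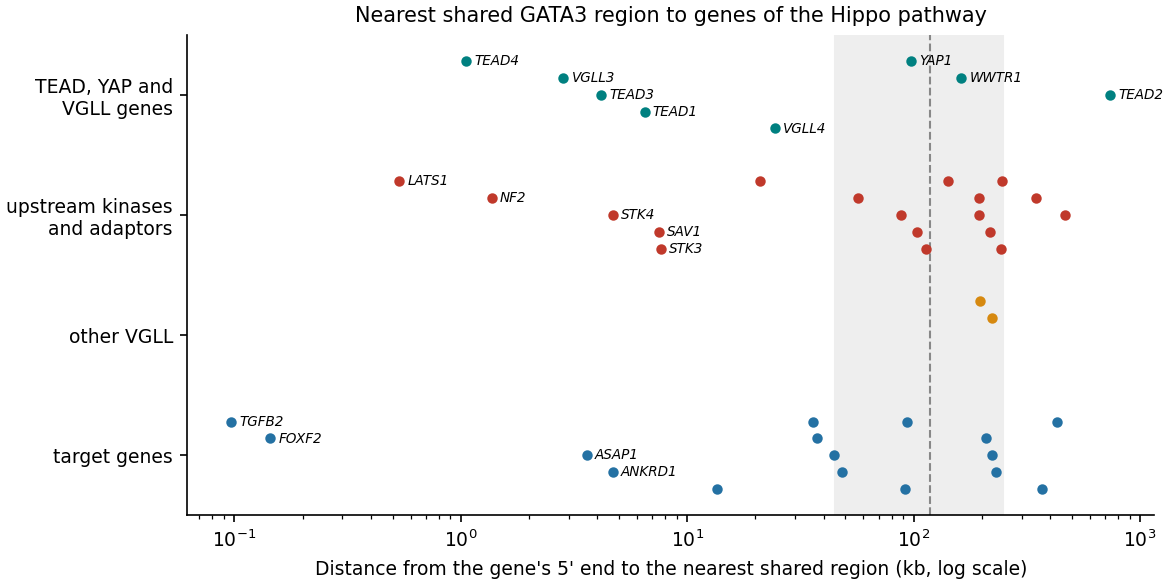
Distance in kb (log scale) from the 5′ end of each gene to the nearest shared GATA3 region, with genes in both lists drawn among the upstream genes. The dashed line is the median of all coding genes, 118 kb, and the grey band their quartiles, 44.8 to 248 kb. TEAD4, VGLL3, TEAD3, TEAD1 and VGLL4 lie below the band and TEAD2 above it.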

How the data were processed

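H1 cells treated with BMP4 were profiled by GATA3 ChIP-seq in 2 replicates with input. According to the study's methods and the submitters' processing notes, the authors used cutadapt for adapters, Bowtie against hg38 for alignment and Picard for duplicates, left out blacklisted and multiply mapped reads, and called peaks per replicate against its input with MACS2 at q 0.05. The deposited files list 1 position and 1 gene symbol per peak, with no width or score. They hold 18545 lines for replicate 1 and 12870 for replicate 2, and the paper's methods report other numbers of peaks. How the deposited lists relate to those peak sets was not given in the sources used here. How a peak was reduced to 1 position and whether bases are counted from 0 or 1 were not given in the sources used here, so offsets from words carry at least 1 bp of uncertainty. Positions on scaffolds (82 and 83) were not used, and none carried a symbol of the 8 genes. The lists show called peaks only, so depth could not be set against them.

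Genes were those of GENCODE 44 on 24 chromosomes, with the 5′ end of the gene as start. A shared region joined positions of the replicates within 100 bp and was centred on their mean. Words were counted on both strands in 200 bp of hg38. Counts of genes with a region and of windows with a word were set beside the same over all coding genes or shared regions. The places of the 11 regions (gene body, exon, nearest or further genes) were counted for these regions alone. No test was run. Wilson intervals (95%) cover counting error only. The replicate samples came from 1 cell line. The code was tested on simulated data with planted regions and words. Python 3.11.15, numpy 2.4.6, pandas 2.3.3, scipy 1.17.1 and pysam 0.24.0 were used. The genes and lists were chosen with earlier results of these data known. Named were the 8 genes, the further pathway genes with a shared region within 10 kb or the highest number of regions (the rule was the 3 highest, and 5 tied), owners of the nearest 5′ end, and up to 5 genes most like TEAD1. Named outside that rule, after their values were seen, were CCN1, CCN2, LATS2, VGLL1, VGLL2, AMOTL2, AJUBA and the further genes whose windows take a region of the 8. The alternatives were other distances, windows, words, gene starts and single replicates.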

Additional observations from a re-analysis of the deposited data

How the results depend on the processing

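No paired analysis was possible because no peak list of the input samples was analysed here and no test compared groups that share replicate numbers. The bare core GATA and the canonical start for the nearest gene were chosen after seeing the data. With 0 to 3 regions per gene, 1 position can change the value of a gene. Taking positions by the deposited symbol alone gave 7 shared regions in place of 11, since those at YAP1 and WWTR1, 1 at TEAD1 and 1 at VGLL4 carried other names. Single replicates gave 13 to 18 positions. The share with a GATA word was 54.5% with AGATAA alone and 100% with the bare core, against 51.6% and 92.6% of all shared regions. At 50 bp the 8 genes had 9 shared regions, with 1 at TEAD1, and 7 genes had one, against 41.6% of coding genes. With 10 or 50 kb in place of 100 kb YAP1 had none, leaving 6 genes with a region, against 21.5% and 33.0% of coding genes. At 200 kb there were 14 regions, and 68.4% of coding genes had one. Without the gene body 6 genes had one, against 45.0%. Of 126 alternative values, 78 for single items and 33 for totals stayed within 1.5 times the main count or its interval. The others, 11 for single items and 4 for totals, moved beyond it.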

Other observations

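Several of the shared regions stood in crowded neighbourhoods. Another protein-coding gene took 6 of the 11 regions by the same rule, and the share over all shared regions was not counted. The TEAD3 region also fell to FANCE, RPL10A and TULP1, and both TEAD4 regions fell to FOXM1, RHNO1 and TULP3. The YAP1 region fell to ANGPTL5, CEP126 and CFAP300 as well, the WWTR1 region to TM4SF4 and the upstream VGLL4 region to TAMM41. The TEAD1 regions, that of VGLL3 and the one inside VGLL4 had no other coding gene.

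The gene with the nearest 5′ end was the member itself for 9 of the 11 regions, a count made for these regions alone. By canonical transcript starts the number was again 9, but WWTR1 took its region in place of TM4SF4, and TAMM41 took the upstream VGLL4 region. Which gene a region acts on was not measured.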
